A study of Rattus norvegicus with 4 samples.

Results

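The genes described here are 10 members of the Notch pathway of rat Schwann cells. They comprise the receptor genes Notch1, Notch2 and Notch3, the ligand genes Jag1, Jag2 and Dll1, the fringe enzyme gene Lfng and the effector genes Hes1, Hey1 and Hey2. They were taken by symbol from the deposited table of 32545 genes, and each symbol matched 1 gene ID. Of these, 9 had enough reads to be tested, while Jag2 had 4 counts in all and was not. Bulk polyadenylated RNA came from the S16 line of rat Schwann cells, which grows without added neurons, so the values describe a single line in culture. The control group received the siRNA IDT DS NC1, and the other group received 1 siRNA against Nr2f1 and 1 against Nr2f2, all with Mirus Transit X2 (time after transfection not given in the sources used here). Each group held 2 libraries, A and B in column order, with 21556011 to 43057750 assigned counts; the labels do not say that they came from separate cultures, so p-values measure the spread between libraries, which may be technical.

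Notch receptors sit in the cell membrane and bind Jagged or Delta-like ligands on neighbouring cells. Binding lets an ADAM protease and then gamma-secretase cut the receptor, and the freed intracellular domain joins RBPJ and Mastermind on DNA to switch on Hes and Hey genes, which encode basic helix-loop-helix (bHLH) repressors. In developing nerves, Notch signalling is known to drive the formation and division of immature Schwann cells and to hold back myelination.

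Both targeted transcripts were lower in the siRNA libraries, at 61.5 and 56.0 CPM against 226 and 208 for Nr2f1, and at 68.1 and 72.7 against 296 and 282 for Nr2f2. CPM are counts scaled by library size and by TMM factors, which correct for composition. The Schwann cell marker Sox10 was at 686 to 760 CPM over the 4 libraries, but Gap43 had 0 counts. Of 9 endothelial markers in the table, Cdh5, Kdr and Sox17 had 0 counts, while Flt1 was at 7.46 to 9.43 CPM and Tek at 3.68 to 6.10 CPM, and the list summed to 14.0 to 14.9 CPM. Of 10 macrophage markers 4 had 0 counts, Ptprc and C1qa among them, and the list, led by Csf1r, Cd68 and Cd14, summed to 1.78 to 2.90 CPM. The 10 mural cell markers summed to 367 and 352 CPM in control and 191 and 178 CPM in siRNA libraries. Most of that sum was Pdgfrb, which fell (log2 fold change -1.40, SE 0.08, adjusted p = 2.56e-07), while Kcnj8 and Abcc9 had 0 counts. It was the sole call among 5 tested mural markers: Acta2 (68.1 to 80.7 CPM, log2 fold change -0.07) and Myh11 (-0.08) overlapped between the groups, and Cspg4 (0.71, adjusted p = 0.150) and Higd1b (-1.41, adjusted p = 0.139) did not pass. The part of this difference in the Notch values was not tested. Fewer cells of a type and less RNA per cell cannot be told apart in bulk RNA.

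Among the members, 1 receptor gene rose, while 1 ligand gene and 2 effector genes fell. Notch2 rose, and Jag1, Hey1 and Hey2 fell, so that 4 of 9 tested members passed the test at an adjusted p under 0.05. The test was edgeR's quasi-likelihood F test, adjusted by Benjamini and Hochberg over 13018 genes. By the same test 18.1% of all tested genes were called, 8.05% as higher and 10.0% as lower, against 1 and 3 of the 9 members. The median log2 fold change (siRNA over control) was -0.25 over the tested members and 0.01 over all tested genes. In all 9 tested members the groups did not overlap, with the siRNA libraries above the controls in 2 and below them in 7; of all tested genes 58.6% were separated in that way, 30.1% above and 28.5% below. Hey2 kept its call in each of the 12 alternatives that were run, Notch2 in 10, Jag1 in 6 and Hey1 in 4. With library-size or upper-quartile scaling the called members were Notch2 and Hey2, a split of 1 higher and 1 lower in place of 1 and 3. Without control library B there were 2 called members and without siRNA library A there was 1, Hey2.

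**Figure D1:**
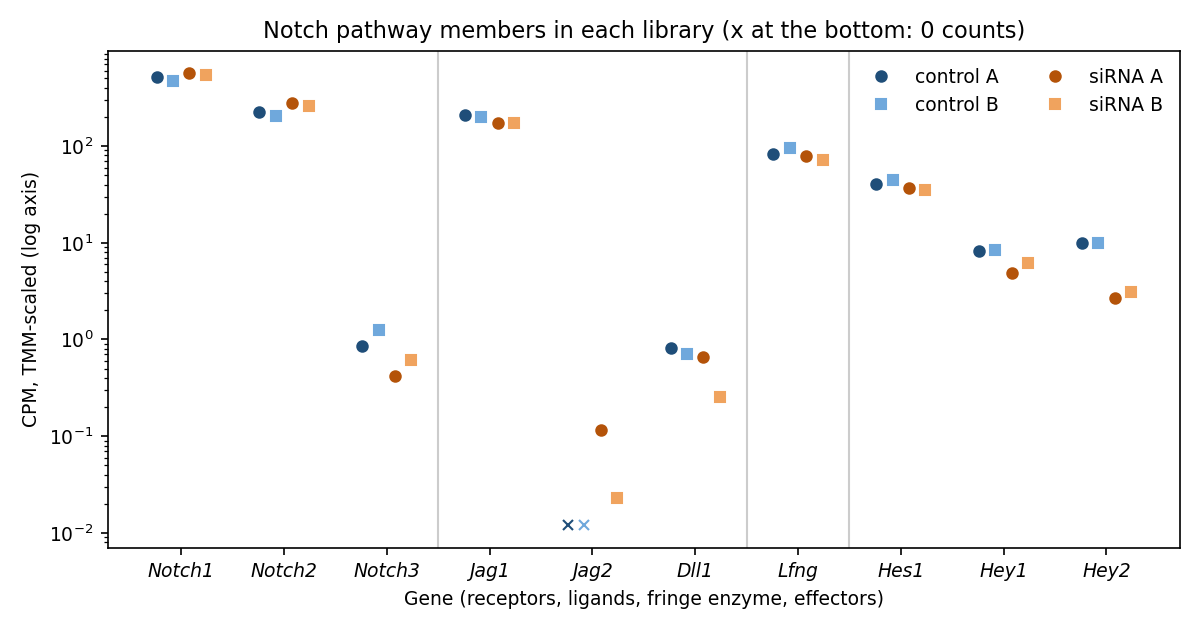
TMM-scaled CPM of each member in each of the 4 libraries on a log axis, with control libraries in blue and siRNA libraries in orange; crosses at the bottom mark 0 counts. Notch1 was highest at 475 to 565 CPM, and Hey2 lay at 10.0 and 9.89 CPM in control against 2.68 and 3.13 CPM in siRNA libraries.

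Among the receptors, Notch1 and Notch2 made up nearly all of the transcripts. Notch1 (ENSRNOG00000019322, chromosome 3, 3905453 to 3951025, minus strand, in the coordinates of the deposited table, build not given in the sources used here) was at 523 and 475 CPM in control and 565 and 539 CPM in siRNA libraries. The groups did not overlap, but the gap between them was smaller than the gap between the control libraries. The log2 fold change of 0.14 (95% interval -0.02 to 0.31) did not pass the test (adjusted p = 0.211).

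Notch2 (ENSRNOG00000018835, chromosome 2, 200187184 to 200317621, plus strand) was at 223 and 205 CPM in control and 276 and 261 CPM in siRNA libraries. Both siRNA libraries lay above both controls, with a gap larger than the spread inside either group. Its log2 fold change was 0.33 (SE 0.08, 95% interval 0.16 to 0.50, adjusted p = 0.0107). The rise lost its call in the fits that left out control library B (0.26, adjusted p = 0.0721) or siRNA library A (0.28, adjusted p = 0.0903).

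Notch3, the receptor best known from mural cells of vessels (ENSRNOG00000004346, chromosome 7, 14138495 to 14189688, minus strand), was close to the detection limit. It had 22 and 27 counts in control and 11 and 27 counts in siRNA libraries, which is 0.8503 and 1.27 against 0.422 and 0.617 CPM. The ratio of summed rates was 0.524, with an exact 95% interval of 0.334 to 0.817 that covers counting error only. Its log2 fold change of -0.93 had an interval of -1.94 to 0.07 and did not pass the test (adjusted p = 0.193).

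Per kilobase of annotated gene length, the pool of the 3 member receptors shifted slightly towards Notch2. Notch4, which is not a member, was at 1.16 to 2.39 CPM and was left out of this pool. Notch2 made up 33.7% and 34.0% of the transcripts of these 3 receptors in control and 37.0% and 36.7% in siRNA libraries (33.9% ± 0.190 and 36.8% ± 0.215, SD, n = 2 each). Notch1 made up 66.1% and 65.8% against 63.0% and 63.2%, and Notch3 at most 0.228% in any library. The Notch2 to Notch1 ratio, which no scaling between libraries can change, was 0.510 and 0.517 in control and 0.587 and 0.580 in siRNA libraries. With 2 libraries against 2, an exact permutation test of such a ratio cannot give a p below 0.333, so none is given.

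The promoter of Notch2 is shown because this was the member that rose. It is the RefSeq window of build GRCr8 from 250 bases before to 50 after the gene start, chr2:188299086-188299385 on the plus strand. The letters searched on both strands were GTGGGAA, the core bound by RBPJ, CACGTG, an E-box, CACGCG, a site bound by Hes and Hey proteins, and AGGTCA, a hexamer bound by nuclear receptors. Among 33469 windows in the same RefSeq table, 6.29% held GTGGGAA, 6.42% CACGTG, 8.50% CACGCG and 16.2% AGGTCA. Capitals mark the matches, here CACGCG starting 97 and 41 bases before the gene start.
Notch2: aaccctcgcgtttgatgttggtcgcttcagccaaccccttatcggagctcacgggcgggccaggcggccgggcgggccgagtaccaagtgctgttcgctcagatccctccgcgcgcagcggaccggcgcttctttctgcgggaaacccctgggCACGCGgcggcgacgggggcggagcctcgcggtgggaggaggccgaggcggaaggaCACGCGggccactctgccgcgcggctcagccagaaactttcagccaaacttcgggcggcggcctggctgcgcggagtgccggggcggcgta

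Jag1 was the main ligand transcript of these cells, and it fell. Jag1 (ENSRNOG00000007443, chromosome 3, 130079361 to 130114770, minus strand) encodes Jagged1. It was at 211 and 201 CPM in control and 175 and 171 CPM in siRNA libraries. Both siRNA libraries lay below both controls, and the groups stood further apart than the libraries inside them. The log2 fold change was -0.25 (SE 0.07, 95% interval -0.41 to -0.09, adjusted p = 0.0333), with 84.0% of the control level remaining. The call did not hold in the fit without control library A (-0.22, adjusted p = 0.156). It also ended in the fits without siRNA library A (-0.27, adjusted p = 0.115) and siRNA library B (-0.24, adjusted p = 0.198).

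The other ligand genes were barely detected. Dll1, which encodes a Delta-like ligand (ENSRNOG00000059984, chromosome 1, 57318708 to 57327379, minus strand), had 21 and 15 counts in control and 17 and 11 in siRNA libraries, at 0.812 and 0.703 against 0.651 and 0.251 CPM. The ratio of summed rates was 0.525 (exact 95% interval 0.309 to 0.885, counting error only). Its log2 fold change of -0.91 had an interval of -2.14 to 0.31 and did not pass the test (adjusted p = 0.298). Jag2, the second Jagged gene (ENSRNOG00000013927, chromosome 6, 137711155 to 137733026, minus strand), had 0 counts in both control libraries and 3 and 1 counts in siRNA libraries A and B. No fold is given, since 3 counts is the limit that a count of 0 allows in a library. Per kilobase, Jag1 made up 99.4% and 99.5% of the transcripts of these 3 ligands in control and 99.4% and 99.8% in siRNA libraries.

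Set against the receptors in the same library, Jag1 fell. Per kilobase it went from above Notch2 to below it, but this crossing depends on the annotated lengths. By CPM alone Jag1 was already below Notch2 in control libraries, at 211 and 201 against 223 and 205. The Jag1 to Notch2 ratio per kilobase was 1.35 and 1.397 in control and 0.902 and 0.937 in siRNA libraries. The Jag1 to Notch1 ratio was 0.690 and 0.722 against 0.529 and 0.543. In both pairs the siRNA libraries lay below the control libraries without overlap. The Jag1 promoter, shown because Jag1 fell while Notch2 rose, held no GTGGGAA. Like that of Notch2 it held CACGCG at a pair of positions, 125 (on the opposite strand) and 47 bases before the gene start, in chr3:144894834-144895133 of GRCr8, minus strand.
Jag1: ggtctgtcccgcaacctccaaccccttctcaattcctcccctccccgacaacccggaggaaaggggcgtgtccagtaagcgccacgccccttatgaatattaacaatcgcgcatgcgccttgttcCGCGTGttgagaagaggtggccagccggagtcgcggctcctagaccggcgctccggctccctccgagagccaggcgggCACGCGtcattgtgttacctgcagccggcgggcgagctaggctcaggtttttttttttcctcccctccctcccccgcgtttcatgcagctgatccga

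Lfng encodes Lunatic fringe, which adds a sugar to Notch receptors in the Golgi and so tunes their response to Delta-like against Jagged ligands. The gene (ENSRNOG00000001250, chromosome 12, 16118634 to 16126953, minus strand) was at 82.6 and 94.6 CPM in control and 78.2 and 71.7 CPM in siRNA libraries. The siRNA libraries lay below the controls, but control library B stood well above control library A. The log2 fold change of -0.24 (SE 0.09, 95% interval -0.44 to -0.04) did not pass the test (adjusted p = 0.0908). Without control library A it passed, at -0.34 (adjusted p = 0.0489). The Lfng window at chr12:19152869-19153168 of GRCr8, minus strand, is shown because it held 3 of the 4 motifs, with CACGTG and GTGGGAA overlapping 127 and 124 bases before the gene start and CACGCG on the opposite strand at 70 and 34.
Lfng: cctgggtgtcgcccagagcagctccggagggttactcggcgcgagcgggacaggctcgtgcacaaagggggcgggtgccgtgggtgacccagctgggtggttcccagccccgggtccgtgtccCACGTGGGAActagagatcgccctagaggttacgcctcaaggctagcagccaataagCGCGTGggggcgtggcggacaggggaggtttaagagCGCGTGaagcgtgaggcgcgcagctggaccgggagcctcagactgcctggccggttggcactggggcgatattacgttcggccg

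Of the effector genes, Hey2 and Hey1 fell and Hes1 did not pass the test, and Hey2 had the largest fold change of the tested members. Hey2 (ENSRNOG00000013364, chromosome 1, 29191192 to 29201531, plus strand) encodes a bHLH repressor that Notch signalling induces in many tissues. It had 259 and 211 counts in control and 70 and 137 counts in siRNA libraries, at 10.0 and 9.89 against 2.68 and 3.13 CPM. The libraries within a group were close and the groups lay far apart. The log2 fold change was -1.75 (SE 0.19, 95% interval -2.16 to -1.34, adjusted p = 7.5e-05), with 29.7% of the control level remaining. Over the alternatives it ranged from -1.89 to -1.67, with adjusted p from 1.23e-09 to 0.000795.

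Hey1, the closest relative of Hey2 (ENSRNOG00000011593, chromosome 2, 95320283 to 95322696, plus strand), changed in the same direction by less. It had 212 and 181 counts in control and 126 and 268 counts in siRNA libraries, at 8.19 and 8.49 against 4.83 and 6.12 CPM. The siRNA libraries lay below the controls, and siRNA library B was nearer to them. The log2 fold change was -0.58 (SE 0.18, 95% interval -0.97 to -0.18, adjusted p = 0.0445), with 67.1% of the control level remaining. This call was lost with the DESeq2 Wald test (adjusted p = 0.0865) and with limma-voom (adjusted p = 0.0625). The call did not hold when control library A (adjusted p = 0.128), control library B (0.130) or siRNA library A (-0.45, adjusted p = 0.196) was left out.

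Hes1 (ENSRNOG00000001720, chromosome 11, 74312806 to 74315248, minus strand), the classic Notch target and the most abundant effector, was at 40.4 and 44.5 CPM in control and 36.7 and 35.4 CPM in siRNA libraries. The siRNA libraries lay below the controls by slightly less than the gap between the controls. The log2 fold change of -0.23 (SE 0.10, 95% interval -0.44 to -0.03) did not pass the test (adjusted p = 0.117). None of the 12 alternatives called it, with adjusted p from 0.108 to 0.401.

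**Figure D2:**
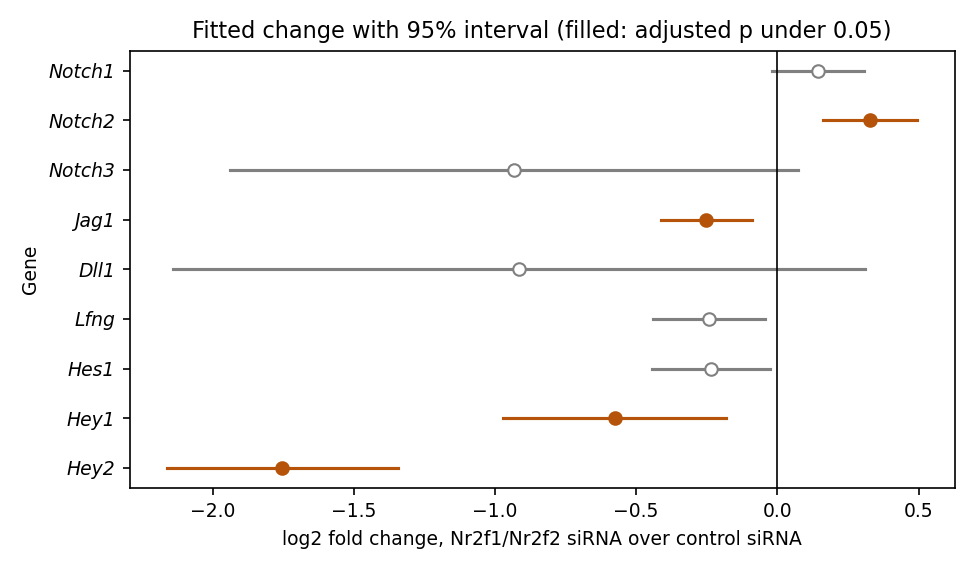
Log2 fold change of the 9 tested members with 95% intervals from the edgeR fit; filled orange points passed the test and open grey points did not. Hey2 stands apart at -1.75, Notch2 lies at 0.33, and the wide intervals of Notch3 and Dll1 rest on at most 27 counts per library.

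Within each library the effector pool moved away from Hey2. Per kilobase, Hey2 made up 9.26% and 8.504% of the 3 effectors in control and 3.18% and 3.64% in siRNA libraries. Hes1 made up 69.2% and 70.7% against 80.5% and 76.1%, and Hey1 21.6% and 20.8% against 16.3% and 20.3%. These shares depend on the annotated lengths, which were 939 bases for Hey1, 1444 for Hes1 and 2673 for Hey2, but a fixed length cannot change how a ratio differs between libraries. The Hey2 to Hey1 ratio was 0.429 and 0.410 in control and 0.195 and 0.180 in siRNA libraries, so the mean in siRNA libraries was 0.447 of that in control. The Hey2 to Hes1 ratio was 0.134 and 0.120 against 0.0395 and 0.0478. The Hey1 to Hes1 ratio was 0.312 and 0.294 against 0.202 and 0.266, a smaller gap with more spread.

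**Figure D3:**
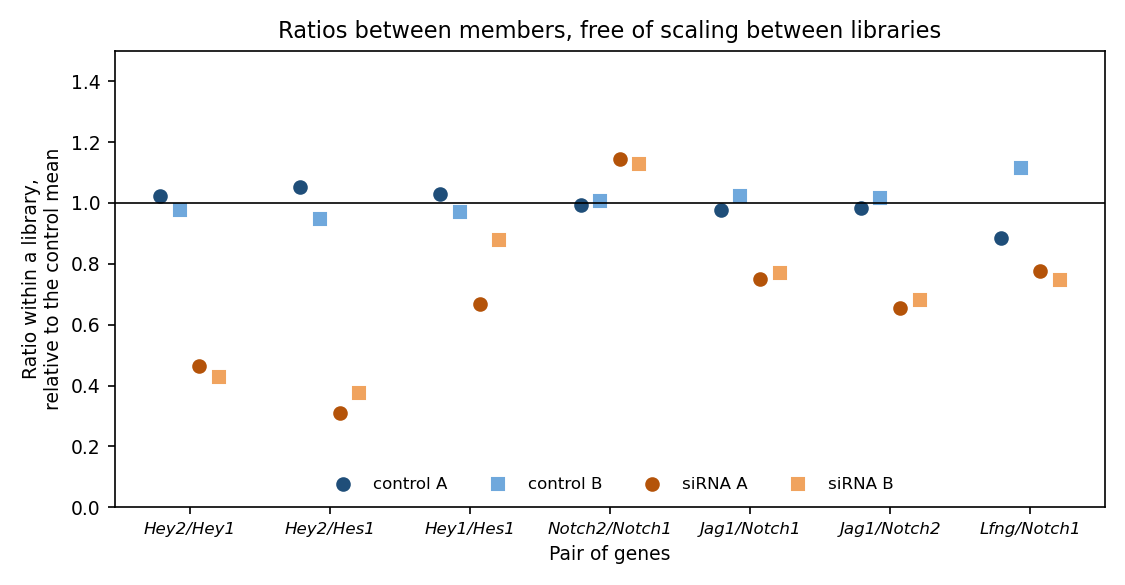
Ratio of counts per kilobase for 7 pairs of members, computed inside each library and divided by the mean of the 2 control libraries, with control libraries in blue and siRNA libraries in orange. No pair overlaps between the groups; the Hey2 to Hes1 pair moved furthest, to 0.343 of the control mean, and the Notch2 to Notch1 pair rose to 1.14 of it.

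The effector promoters are shown because both held the RBPJ core while their transcripts differed in size of change. In Hes1 (chr11:84212996-84213295 of GRCr8, minus strand) GTGGGAA started 124 bases before the gene start, with CACGCG on the opposite strand at 159 and 86. In Hey2 (chr1:28640850-28641149, plus strand) GTGGGAA started 61 bases before the gene start, and no other motif searched was found. Windows were found for 9 of the 10 members, with Jag2 having a pair of them, and Hey1 is named only. Of these 10 windows, 4 held GTGGGAA (Dll1, Lfng, Hes1 and Hey2), 5 held CACGCG, 1 held CACGTG and 0 held AGGTCA. A match or its absence in 300 bases is a description of the letters.
Hes1: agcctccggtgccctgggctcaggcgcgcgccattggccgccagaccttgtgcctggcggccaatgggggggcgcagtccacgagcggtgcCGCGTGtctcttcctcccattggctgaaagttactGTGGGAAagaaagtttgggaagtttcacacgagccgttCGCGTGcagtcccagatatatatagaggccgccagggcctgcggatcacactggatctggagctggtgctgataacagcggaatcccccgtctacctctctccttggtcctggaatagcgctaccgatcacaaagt
Hey2: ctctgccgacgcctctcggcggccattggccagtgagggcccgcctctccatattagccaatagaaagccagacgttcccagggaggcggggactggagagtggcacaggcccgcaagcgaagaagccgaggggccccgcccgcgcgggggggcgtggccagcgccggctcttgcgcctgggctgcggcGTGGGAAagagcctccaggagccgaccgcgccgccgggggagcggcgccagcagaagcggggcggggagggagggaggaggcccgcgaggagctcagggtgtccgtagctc

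The genes whose profile over the 4 libraries was most like that of Hey2 were Sbspon, Arhgap19, Fam124a, LOC100911440 and RGD1565131. Likeness was the distance between log2 CPM values after each gene's mean was subtracted, over 12310 tested protein-coding genes, and it was 0.0496 for Sbspon and 0.232 for RGD1565131. Arhgap19 was at 40.9 and 40.0 CPM in control and 11.5 and 12.2 CPM in siRNA libraries. Sbspon was at 16.3 and 16.6 against 4.41 and 5.03 CPM. With 4 libraries, many genes that fall by a like amount have such profiles.

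The remaining pathway genes were read from 6 lists with 67 entries, of which 63 were in the table and 49 were tested. Of these, 2 rose, 9 fell and 38 did not pass, which is 22.4% called against 18.1% of all genes. The median log2 fold change of the 49 was 0.03. The 9 that fell include Bhlhe40 and Bhlhe41, bHLH genes whose place in the Notch pathway was not tested. With library-size scaling, which moved log2 fold changes up by 0.052 in the median, 9 were higher and 7 lower. Without siRNA library B 0 were higher and 5 lower, and without control library B 1 was higher and 7 lower.

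The 2 that rose encode membrane proteases of the ADAM family, of which Adam10 is known for the first ligand-induced cut of the receptor. Adam10 was at 127 and 120 CPM in control and 147 and 167 CPM in siRNA libraries (log2 fold change 0.35, SE 0.09, adjusted p = 0.0137). Adam17 was at 162.2 and 156 against 180 and 201 CPM (0.27, SE 0.08, adjusted p = 0.0378). Both genes were above the control range in both siRNA libraries, with siRNA library B the higher. Leaving out control library B ended both calls (adjusted p = 0.0694 and 0.154), as did leaving out siRNA library B (0.182 and 0.365), and the call of Adam17 also needed control library A (adjusted p = 0.0767 in its absence) and was not made by limma-voom (0.0520). Of 7 tested genes of receptor proteolysis, 2 rose and 5 did not pass, while 8.05% of all tested genes rose. The median log2 fold change of these 7 genes was 0.20, against 0.01 over all tested genes. The gamma-secretase subunit genes Ncstn (0.18, 95% interval 0.03 to 0.34) and Aph1a (0.20, 95% interval 0.04 to 0.37) were among those that did not pass.

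Among the tested genes of the nuclear complex, the largest change was in a corepressor gene. Tle4, a Groucho relative that Hes proteins recruit to silence genes, fell from 31.1 and 31.6 CPM in control to 17.1 and 16.9 CPM in siRNA libraries (log2 fold change -0.88, SE 0.11, adjusted p = 0.000152). Its relative Tle1 was at 10.0 and 9.003 against 6.25 and 6.90 CPM (-0.53, SE 0.16, adjusted p = 0.0421). No fit on 3 libraries kept it (adjusted p from 0.0607 to 0.230), and DESeq2 (adjusted p = 0.0968) and limma-voom (0.0565) did not call it. Of 15 tested genes of the nuclear complex, 0 rose, 2 fell and 13 did not pass. Of all tested genes 8.05% rose and 10.0% fell. At an unadjusted p under 0.05, Kdm5a (0.24, adjusted p = 0.0503) and Tle3 were higher. Tle3, the most abundant of the listed Tle genes, was at 164 and 174 CPM in control and 205 and 193 CPM in siRNA libraries (0.23, adjusted p = 0.0521). Tle2 overlapped between the groups (0.01, adjusted p = 0.972), so the listed Tle genes did not share a direction. In this list DESeq2 and library-size scaling each called 2 higher and 1 lower, and limma-voom 0 higher and 1 lower. The symbol Rbpj, the DNA-binding partner of the receptor, matched 2 gene IDs, and the one with more counts (ENSRNOG00000046327) was used. It was at 55.8 and 50.1 CPM in control and 51.8 and 58.6 CPM in siRNA libraries, with the groups overlapping.

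Few of the genes that limit or modify the pathway were called, 1 of 9 and 2 of 11 in the lists below. Over all tested genes 18.1% were called, and neither count stands out from that share. Numbl, a relative of the Notch inhibitor Numb, fell from 83.1 and 91.1 to 58.1 and 52.5 CPM (-0.66, SE 0.09, adjusted p = 0.000418) and was the sole call among 9 tested turnover and inhibitor genes. Of 11 tested glycosylation and endocytosis genes, 2 fell and 9 did not pass. Epn2, an epsin of clathrin-coated pits, fell from 152 and 147 to 116 and 117 CPM (-0.36, SE 0.08, adjusted p = 0.00601). The Neuralized family of ubiquitin ligases acts on ligands, and its 2 genes in the list moved in opposite directions. Neurl1 was at 23.2 and 23.2 CPM in control and 29.5 and 28.1 CPM in siRNA libraries, and did not pass the test (0.31, adjusted p = 0.0568). Neurl1b fell from 17.8 and 15.2 to 11.2 and 11.4 CPM (-0.56, SE 0.14, adjusted p = 0.0132). Its adjusted p was 0.126 without control library A and 0.0544 without siRNA library B.

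Of 3 tested genes among the other receptors, ligands and matrix binders, 2 fell, as did 2 of 4 tested genes in a list of other bHLH genes. Of all tested genes 10.0% fell, but lists of 3 and 4 genes are too short to be compared with that share. Mfap5, a microfibril protein reported to bind Notch1 and Jagged1, fell from 20.9 and 18.2 to 12.3 and 11.8 CPM (-0.70, SE 0.13, adjusted p = 0.00259). Egfl7, a secreted factor reported to bind Notch receptors, was at 6.61 and 8.82 CPM in control and 5.48 and 4.29 CPM in siRNA libraries (-0.68, SE 0.21, adjusted p = 0.0408). DESeq2 did not call Egfl7 (adjusted p = 0.0815), and its adjusted p was 0.248 without control library B and 0.275 without siRNA library B. In the bHLH list, Bhlhe40 fell from 45.8 and 47.9 to 34.2 and 34.1 CPM (-0.46, SE 0.09, adjusted p = 0.00483) and Bhlhe41 from 18.1 and 14.5 to 11.99 and 11.01 CPM (-0.52, SE 0.15, adjusted p = 0.0260). Whether Notch signalling acts on either gene in these cells was not tested. For Bhlhe41 the adjusted p was 0.2497 without control library A and 0.153 without siRNA library B. The tested Hes genes of that list, Hes6 and Hes7, did not pass the test (adjusted p = 0.909 and 0.615). Hes6 overlapped between the groups at 37.1 and 43.3 against 46.4 and 36.0 CPM, and Hes5 and Heyl had at most 4 counts in any library.

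**Figure D4:**
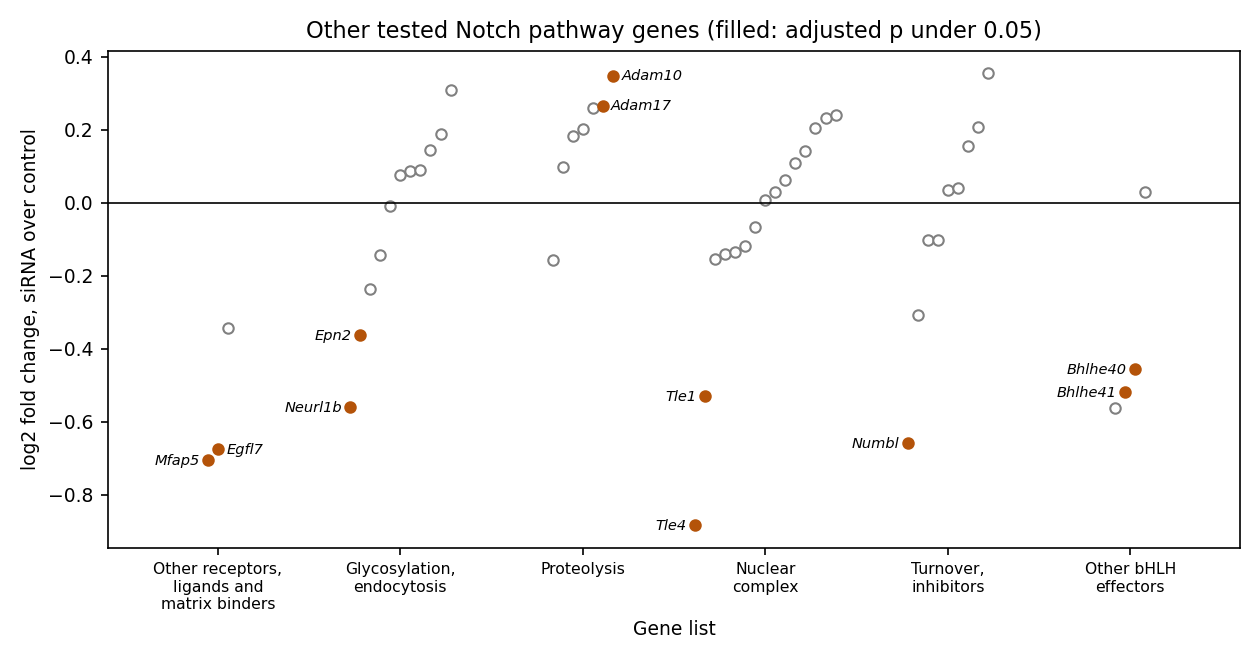
Log2 fold change of 49 tested pathway genes outside the members, by list; filled orange points with names passed the test. The named points at the bottom are Tle4 at -0.88 and Mfap5 at -0.70, and the named points above 0 are Adam10 at 0.35 and Adam17 at 0.27.

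The authors' deposited table, which gives its own test, called 11.3% of 17633 genes at an adjusted p under 0.05. Those genes include some with very few reads, such as Jag2 with 4 counts. The share therefore cannot be compared directly with the 18.1% of 13018 genes called here. In the authors' deposited table Hey2 was at -1.78 (adjusted p = 8.32e-09), Notch2 at 0.32 (adjusted p = 0.00176) and Jag1 at -0.26 (adjusted p = 0.0141). Hey1 was at -0.61 in the authors' deposited table with an adjusted p of 0.108, above the threshold.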

How the data were processed

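Per the labels' protocols, Trizol-extracted RNA was selected by its poly-A tails and reverse transcribed from random primers, and libraries were run on an Illumina Novaseq. The deposited read counts per Ensembl gene and FPKM values were made by the authors; the submitters' processing notes name DESeq2 1.20.0, HISAT2 and featureCounts 1.5.0-p3, with no role for each. Genome build, annotation and strand setting were not given in the sources used here. The authors' deposited log2 fold changes and p-values are printed only where named. No member overlaps another gene with reads.

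Counts were tested with edgeR 4.0.16 in R 4.3.3: filterByExpr on the groups, TMM factors of 0.975 to 1.02, a robust quasi-likelihood fit with intercept and group over 13018 genes, and Benjamini-Hochberg adjustment with a threshold of 0.05. The standard error is the absolute log2 fold change over the square root of F. The script was tested on simulated data. Replicates differed by more than counting noise (chi-square of 12.3 per gene in each group). The numbers in the column names differ from the replicates in the titles, so columns carry a group and no sample. A count of 3 equals 0.0685 to 0.141 CPM. Alternatives used DESeq2 1.42.0, limma 3.58.1, other scalings and filters, thinned counts and each library left out.

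Members and lists were chosen with earlier results of these data known. Genes named were the members, the targets, up to 3 called genes per list with the smallest adjusted p, and the 5 profiles nearest to Hey2. Rbpj, Ncstn, Aph1a, Notch4, Neurl1, Kdm5a, Tle2, Tle3, Hes5, Hes6, Hes7, Heyl and the marker genes were chosen after their values were seen. Promoters are RefSeq sequences matched by symbol. Nrarp, Hdac1, Maml3 and Aph1b matched no symbol in the table and were not analysed here.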

Additional observations from a re-analysis of the deposited data

How the results depend on the processing

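No direction of a member or target reversed in any of the alternatives that gave a value. With all libraries, 4 members were called (1 higher, 3 lower), against 2 (1 and 1) with upper-quartile scaling, library-size scaling or counts thinned to the shallowest library, and between 1 and 3 (0 to 1 higher, 1 to 2 lower) when a library was left out. Relative to TMM, upper-quartile scaling moved the log2 fold changes up by 0.034 in the median and library-size scaling by 0.052, and with the latter Jag1 was at -0.20 (adjusted p = 0.0750) and Hey1 at -0.52 (adjusted p = 0.0655). Of the 2350 genes called over the whole table (1048 higher, 1302 lower), between 1353 and 1813 were called when a library was left out (602 to 766 higher, 751 to 1086 lower); the lowest total was without siRNA library B and without control library A there were 1553, of which 611 were higher. With all libraries and library-size scaling 57.8% of the called genes were higher, with upper-quartile scaling 53.3%, and with TMM 44.6%. Among the other pathway genes, 2 were higher with TMM, against 6 with upper-quartile scaling, 9 with library-size scaling, 5 with a filter of 1 CPM in 2 libraries, 4 with DESeq2, 3 with thinned counts and 1 with limma-voom. Leaving out a library gave 5 to 10 called, 0 to 2 higher and 5 to 8 lower. In fits without a library the lone sample of its group is assumed to vary like the others. Shares within a role from the deposited FPKM equal those from counts by construction, so they test nothing. No paired analysis was possible because the columns do not carry the replicate numbers of the titles and the groups' columns share only the number 3. Depth left Jag2 untested. For Notch3 and Dll1 the counting intervals of the rate ratio lay below 1, but the fit, which includes the spread between libraries, did not call them.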
